A study of Mus musculus with 9 samples.

Results

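Cystine import, transsulfuration and glutathione synthesis and breakdown were followed through 9 genes in cultured mouse lung cells with and without the transcription factor Nrf2. The genes were Slc7a11, Slc3a2, Gclc, Gclm, Gss, Ggt1, Chac1, Cth and Cbs. A probe set was included when its only gene symbol in the platform annotation was one of these 9. This gave 13 of the 45037 probe sets, for 8 of the 9 genes, out of 18193 genes with such a probe set on the array. Ggt1 had 0 probe sets, so it has no value here. A probe set is a group of short probes that measure 1 transcript region.

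The 9 arrays formed 3 groups of 3. The first held cells of Nrf2-/- mice supplemented with GSH, the usual abbreviation of glutathione, and the second cells of Nrf2-/- mice without it. The third held cells of Nrf2+/+ mice, the wild type. All groups were labelled as type II cells (the surfactant-making cells of the alveolus) of female ICR10 mice aged 2 months, and every group had 5 days of culture with keratinocyte growth factor on plates coated with fibronectin and collagen. No label used here gives the dose, form or duration of GSH, or which part of Nfe2l2, the gene of Nrf2, was deleted. The label for treatment reads no treatment on every array, whereas the sample titles mark the 3 arrays with GSH, and no others, as treated. The series title names the contrast of the 2 genotypes. A number in the sample titles places 2 arrays of each group in a set called set 2 here and 1 in set 3. Whether replicate arrays stem from separate mice or cultures is not labelled, so a p-value covers the spread among these 9 arrays alone, possibly technical.

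Glutathione is made from cysteine, glutamate and glycine, and cysteine is usually the scarce one. Cells bring in cystine, the oxidised dimer of cysteine, through an exchanger that gives out glutamate, or make cysteine from homocysteine by transsulfuration. Glutamate-cysteine ligase and then glutathione synthetase join the 3 amino acids. Nrf2 is known to raise the exchanger and the ligase through antioxidant response elements. ATF4, the factor that answers amino acid shortage, is known to raise Slc7a11, Chac1 and Cth through amino acid response elements.

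The promoters of Slc7a11, Chac1 and Gclm are shown because these members changed in the comparisons below and their windows hold a match to one of these elements. Gclc and Cth, which also changed, have no entry in the promoter table. Sequences are those of RefSeq on GRCm38.p6, from 250 bases before to 50 bases after the gene start, written 5′ to 3′ on the strand of the gene. Capitals mark a match to TGATGNAA (the amino acid response element core) or TGACNNNGC (the antioxidant response element core) on either strand, and no matches overlapped.
Slc7a11 (chr3:50443564-50443863, minus strand): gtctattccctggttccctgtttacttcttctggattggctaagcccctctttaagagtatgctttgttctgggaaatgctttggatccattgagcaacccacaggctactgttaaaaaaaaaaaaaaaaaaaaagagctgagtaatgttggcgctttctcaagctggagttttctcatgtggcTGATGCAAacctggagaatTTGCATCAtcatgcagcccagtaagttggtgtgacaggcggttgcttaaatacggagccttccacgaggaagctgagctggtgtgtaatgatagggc
Chac1 (chr2:119350992-119351291, plus strand): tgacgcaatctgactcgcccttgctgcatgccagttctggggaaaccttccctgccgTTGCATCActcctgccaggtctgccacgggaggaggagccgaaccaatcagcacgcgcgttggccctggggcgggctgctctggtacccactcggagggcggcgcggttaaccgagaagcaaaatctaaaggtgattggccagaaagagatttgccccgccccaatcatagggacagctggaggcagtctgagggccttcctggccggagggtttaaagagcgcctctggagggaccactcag
Gclm (chr3:122245307-122245606, plus strand): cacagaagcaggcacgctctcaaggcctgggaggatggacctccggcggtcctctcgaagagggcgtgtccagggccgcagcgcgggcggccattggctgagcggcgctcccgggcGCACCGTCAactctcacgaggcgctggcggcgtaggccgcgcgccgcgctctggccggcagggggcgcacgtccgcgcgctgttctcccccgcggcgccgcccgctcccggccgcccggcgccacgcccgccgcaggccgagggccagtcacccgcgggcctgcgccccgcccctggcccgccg

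Slc7a11 held 2 matches to TGATGNAA, which begin 66 and 47 bases before the gene start and run on opposite strands. Chac1 held 1 match to it, which begins 193 bases before the start on the opposite strand. The same letters occurred in 3.97% of 32851 promoter windows of 300 bases. The Gclm window held 1 match to TGACNNNGC, which begins 134 bases before the start on the opposite strand, and 12.4% of all windows hold one. The Slc7a11 and Chac1 windows held 0 matches to TGACNNNGC. Promoter windows of 7 of the 9 genes were in the table. Those of Slc3a2, Gss and Cbs held neither core, and 3 of the 4 Ggt1 windows held TGACNNNGC. A match of letters is a description of the sequence only.

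Values below are array intensities in arbitrary units, scaled by the authors to a 2% trimmed mean of 500 on each array, and given in the order of replicate numbers within a group. Differences are log2 differences from limma with their standard error (SE), and an adjusted p under 0.05 (Benjamini-Hochberg over 22519 probe sets) is called a change. A probe set was tested when its mean log2 intensity reached the median of all probe sets, a geometric mean of 116, which 12 of the 13 member probe sets did. With 3 arrays a group, precision is limited by their number. The brighter of 2 probe sets for Nfe2l2 read 45.3, 46.2 and 33.3 in knockout cells with GSH, 73.6, 77.4 and 28.7 in knockout cells, and 3879, 3889.8 and 4173 in wild-type cells. The level of bacterial control probe sets was 43.4 to 82.9 by array, and the Nfe2l2 signal exceeded it on 2 of the 6 knockout arrays, both without GSH. Its other probe set read 188.9, 133.9 and 121 in knockout cells with GSH, 37, 68.6 and 34.4 in knockout cells, and 39.2, 51.6 and 35.8 in wild-type cells, and so did not separate the genotypes. Sftpc, which defines type II cells, averaged 108 ± 30.3 with GSH, 89.1 ± 48.7 in knockout and 37.3 ± 10.3 in wild type (SD, n = 3 each). It lay at or below the control level on all 3 wild-type arrays and was not tested. Another surfactant gene, Sftpd, averaged 349 ± 37.1 with GSH, 218 ± 56.1 in knockout and 448 ± 52.2 in wild type. Of 8 tested type II cell markers, 2 were higher and 1, Sftpd, lower in knockout than in wild type. In that comparison 29.1% of all probe sets were called. The X-silencing RNA Xist averaged 3510.03 ± 1112 with GSH, 3203 ± 1248 in knockout and 157 ± 28.2 in wild type, while Y-linked Eif2s3y averaged 7.43 ± 7.68 with GSH, 9.27 ± 13.1 in knockout and 801 ± 121 in wild type, although the labels call every mouse female. Genotype and this difference cannot be told apart in comparisons with wild type. The set 3 arrays had lower spiked bioC signals (349 to 569) than the set 2 arrays (995 to 1436), and set was a term in the model.

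Knockout cells had less Slc7a11, Gclc and Gclm transcript than wild-type cells, with smaller falls of Chac1 and of 1 of 2 Gss probe sets. Slc7a11 stood at 20.4% of its wild-type mean and Gclm at 55.9% by the brighter probe set of each. Cth, Cbs and Slc3a2 did not pass the test between the genotypes. Of the 12 probe sets tested, 8 fell and 0 rose in knockout, on a background of 29.1% of all probe sets called in either direction and 14.6% called lower. With no set term 3 of these calls remained, both of Slc7a11 and 1 of Gclc.

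Cth and Chac1 fell in knockout cells with GSH against knockout cells, to 14.1% and 39.8% of the knockout mean. Slc7a11 rose 2.91-fold by its brighter probe set, and Gclc and Slc3a2 rose by less than 1.5-fold. The calls of Slc3a2 and of Gclc 1424296_at were lost with no set term and with the replicate number as a block. Gclm, Gss and Cbs did not pass the test. Of the 12 probe sets 5 rose and 2 fell, on a background of 35.4% called in either direction, 18.4% higher and 17% lower. Against wild-type cells, knockout cells with GSH had 5 of the 12 probe sets lower (Cth, Chac1, both of Slc7a11 and 1 of Gclm) and 0 higher, on a background of 44.7% called in either direction, 22.5% higher and 22.3% lower. The share of members called lay near the background in that last comparison.

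**Figure D1:**
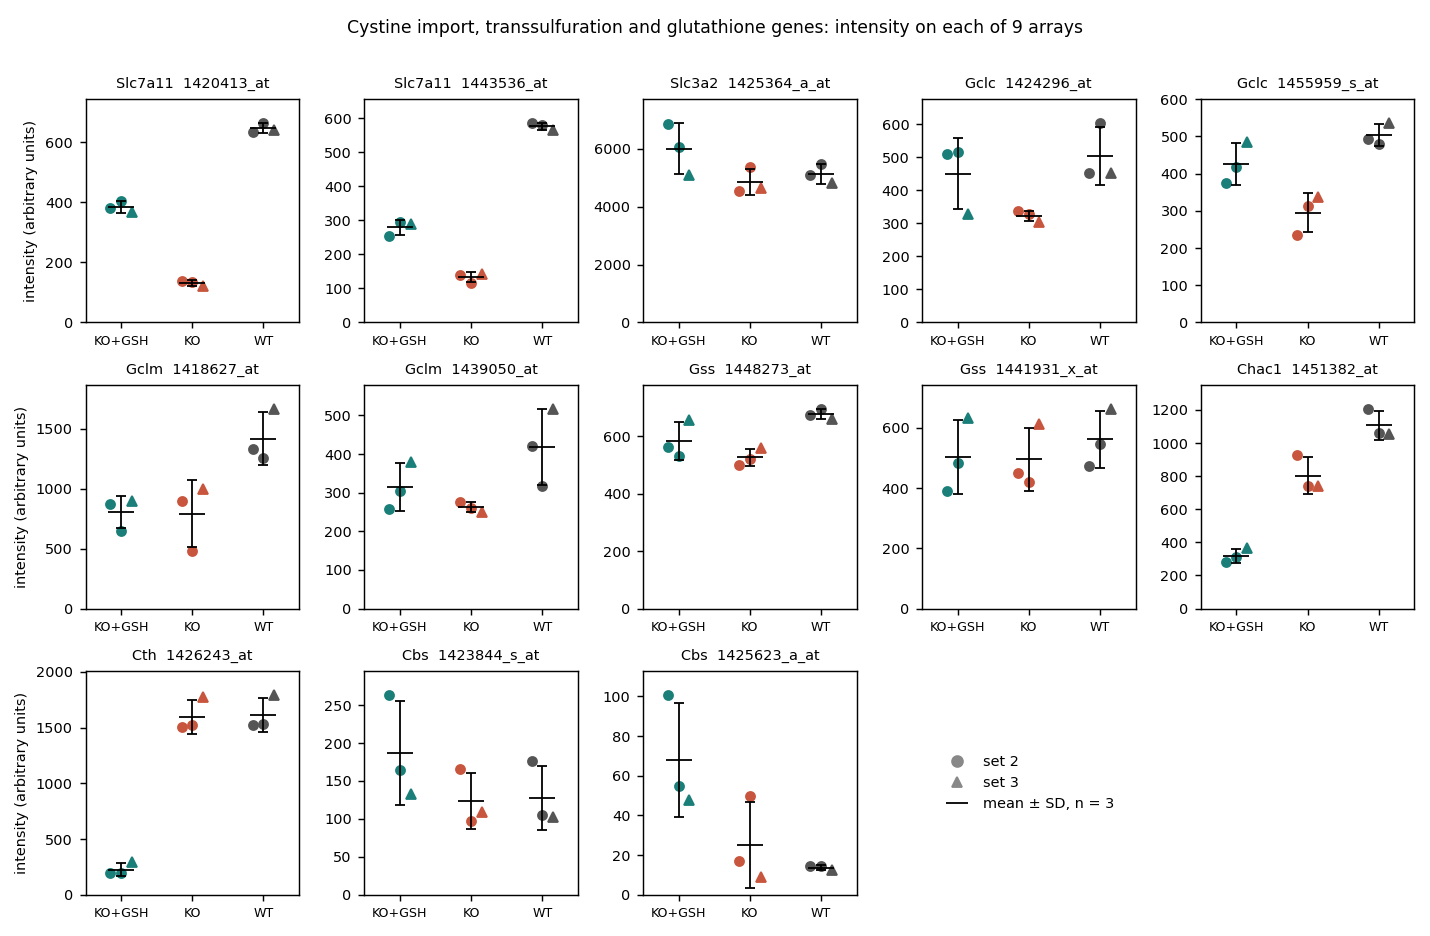
Intensity of each of the 13 member probe sets (vertical axes, arbitrary units from 0) on the 3 arrays of knockout cells with GSH, knockout cells and wild-type cells. Circles are set 2, triangles set 3, and bars the mean ± SD (n = 3). Cth and Chac1 are low with GSH, and both Slc7a11 probe sets are lowest in knockout.

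Slc7a11 encodes the transport subunit of the cystine-glutamate exchanger and was measured by 2 probe sets. Probe set 1420413_at read 383, 406 and 366 in knockout cells with GSH, 139.6, 135 and 122 in knockout cells, and 636, 666 and 642 in wild-type cells. The 3 groups did not overlap, with knockout lowest and wild type highest. Knockout lay 4.91-fold below wild type (log2 difference -2.30, SE 0.12, limma adjusted p = 1e-07), the 53rd largest fall of the 22519 probe sets. With GSH the signal was 2.91-fold above knockout (1.54, SE 0.12, limma adjusted p = 1.2e-06). It was still 59.4% of the wild-type mean (-0.75, SE 0.12, limma adjusted p = 0.00029).

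The other Slc7a11 probe set, 1443536_at, gave the same order. It read 255, 296 and 289.5 with GSH, 139, 117 and 143 in knockout, and 586, 579 and 565 in wild type. Its differences were -2.12 for knockout against wild type (limma adjusted p = 6.1e-07), 1.08 for GSH against knockout (8.5e-05) and -1.04 for GSH against wild type (7.9e-05), each with an SE of 0.14. The rise with GSH was thus 2.11-fold by this probe set. Every one of these 6 Slc7a11 calls held under each alternative in which the probe set was tested, whereas a filter at the 70th percentile left both out.

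Slc3a2 encodes the heavy chain that carries the exchanger, and several other amino acid transporters, to the cell surface. It read 6872, 6074 and 5084 with GSH, 4544, 5376 and 4637 in knockout, and 5099, 5482 and 4807 in wild type. The groups overlapped in every comparison. Knockout and wild type differed by -0.08 (95% interval -0.27 to 0.10, limma adjusted p = 0.52). With GSH it was 1.23-fold above knockout (0.30, SE 0.08, limma adjusted p = 0.016), with 0.39 in set 2 and 0.13 between the single arrays of set 3. That call was lost with the replicate number as a block (adjusted p = 0.092), with no set term (0.12), with no intensity trend (0.059), without GSH replicate 2 (0.066) and without knockout replicate 2 (0.064). Against wild type it was 0.22 with GSH (limma adjusted p = 0.055). That difference passed the test with the filter at the 70th percentile (0.046), over the 6 arrays compared alone (0.035), without GSH replicate 4 (0.030) and without knockout replicate 2 (0.029) or 3 (0.048).

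Gclc encodes the catalytic subunit of glutamate-cysteine ligase, which carries out the rate-limiting step of glutathione synthesis. Probe set 1455959_s_at read 374, 419 and 486 with GSH, 236, 312 and 337 in knockout, and 494, 479.6 and 537 in wild type. Knockout overlapped with neither other group. It fell 1.72-fold below wild type (-0.78, SE 0.13, limma adjusted p = 9e-04), and cells with GSH lay 1.45-fold above knockout (0.54, SE 0.13, limma adjusted p = 0.0069). Cells with GSH differed from wild type by -0.25 (95% interval -0.53 to 0.04, limma adjusted p = 0.15).

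Probe set 1424296_at of Gclc read 509, 516 and 327 with GSH, 336, 327 and 305 in knockout, and 454, 605 and 454 in wild type. The lone set 3 array with GSH lay among the knockout arrays. Knockout was 1.55-fold lower than wild type (-0.63, SE 0.15, limma adjusted p = 0.0077). That call was lost with no set term (adjusted p = 0.071) and with the replicate number as a block (0.062). Here and below, in comparisons with wild type, that block joins arrays of different sets and drops the set term. It is therefore no test of pairing there. The rise with GSH was 0.45 (SE 0.15, limma adjusted p = 0.032), with 0.63 in set 2 and 0.10 in set 3. It missed the threshold with the replicate number as a block (adjusted p = 0.14), with no set term (0.16), with no signal filter (0.054), without GSH replicate 2 (0.099) or 3 (0.11) and without knockout replicate 2 (0.083) or 3 (0.091).

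Gclm encodes the modifier subunit, which raises the ligase's efficiency. Probe set 1418627_at read 871, 648 and 895 with GSH, 899, 479 and 1002 in knockout, and 1333, 1256 and 1667 in wild type. All 6 knockout arrays, with GSH or without, lay below all 3 wild-type arrays. The falls against wild type were 1.77-fold with GSH (-0.82, SE 0.20, limma adjusted p = 0.0051) and 1.86-fold without (-0.90, SE 0.20, limma adjusted p = 0.0053). GSH and knockout differed by 0.08 (95% interval -0.35 to 0.51, limma adjusted p = 0.80), an interval that runs from 0.783 to 1.42 times knockout. With no set term the knockout fall had an adjusted p of 0.053.

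The dimmer Gclm probe set, 1439050_at, read 258, 305 and 381 with GSH, 275, 261 and 251 in knockout, and 420.5, 318 and 516 in wild type. Knockout fell 1.56-fold (-0.65, SE 0.17, limma adjusted p = 0.014) and did not overlap with wild type. That call was lost with no set term (adjusted p = 0.075), with the replicate number as a block (0.24) and in set 2 alone (0.14). It was also lost without wild type replicate 3 (0.064), wild type replicate 5 (0.080) or knockout replicate 4 (0.080). With GSH the difference was 0.24 from knockout (limma adjusted p = 0.29) and -0.40 from wild type (0.073). The second of these passed over the 6 arrays compared alone (adjusted p = 0.046), without knockout replicate 4 (0.045) and without wild type replicate 4 (0.031).

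Gss encodes glutathione synthetase, which adds glycine in the last step. Probe set 1448273_at read 563, 529.7 and 657 with GSH, 500.4, 519.7 and 559 in knockout, and 675, 696 and 660.3 in wild type. Wild type lay above both other groups without overlap. Knockout fell 1.29-fold (-0.36, SE 0.10, limma adjusted p = 0.016). That call was lost with no set term (adjusted p = 0.079), with the replicate number as a block (0.13) and without wild type replicate 3 (0.067) or 4 (0.083). Cells with GSH were at -0.22 against wild type (limma adjusted p = 0.088), past the threshold without wild type replicate 5 (0.049), and at 0.14 against knockout (0.29). The second Gss probe set, 1441931_x_at, whose suffix marks probes that can bind other transcripts, read 391, 482 and 634 with GSH, 451, 421 and 614 in knockout, and 475, 546 and 663 in wild type. It differed by -0.19 between knockout and wild type (95% interval -0.44 to 0.06, limma adjusted p = 0.25), and all groups overlapped.

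**Figure D2:**
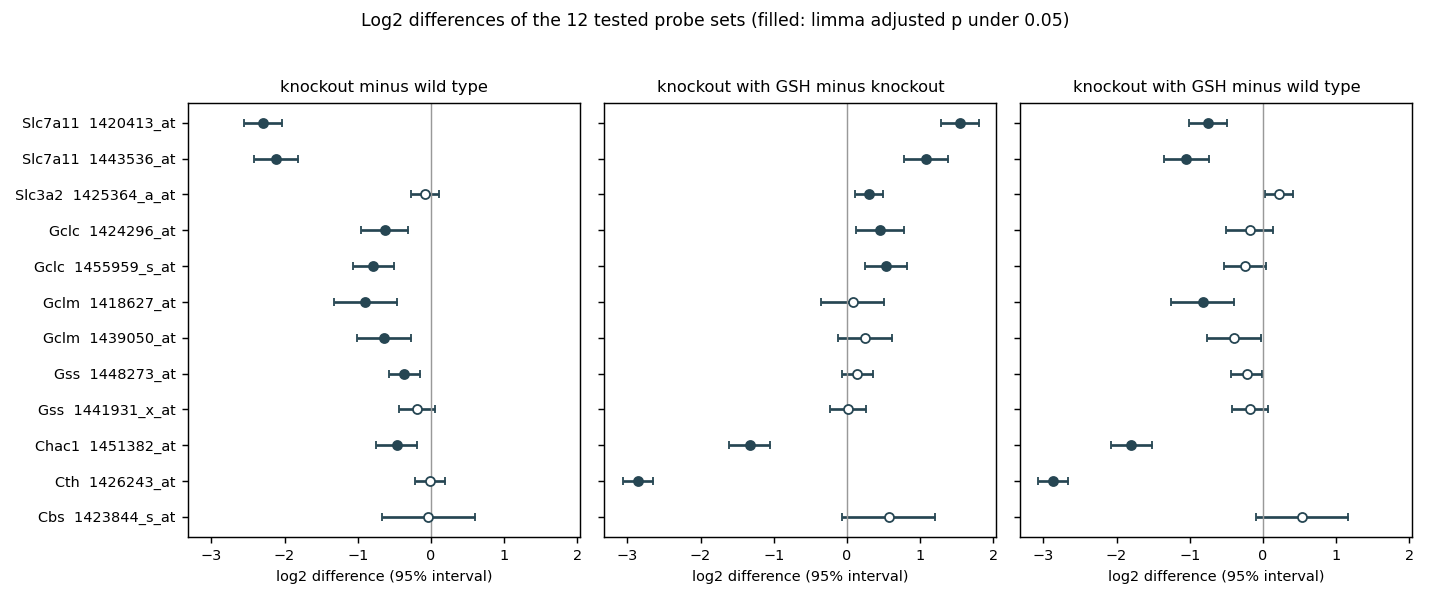
Log2 differences of the 12 tested probe sets (rows) with 95% intervals (horizontal axis) in each comparison. Filled points have a limma adjusted p under 0.05. Slc7a11 lies farthest left between knockout and wild type, and Cth and Chac1 farthest left in both comparisons of cells with GSH.

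Cth encodes cystathionine gamma-lyase, which releases cysteine at the end of transsulfuration. It read 192, 194 and 289.7 with GSH, 1502, 1522 and 1774 in knockout, and 1525, 1530.3 and 1793 in wild type. All 3 arrays with GSH lay far below the other 6, and the knockout and wild-type arrays ran side by side. Cth with GSH was 7.22-fold below knockout (-2.85, SE 0.09, limma adjusted p = 1.5e-09), the 109th largest fall among 22519 probe sets. It was 7.30-fold below wild type (-2.87, SE 0.09, limma adjusted p = 1.7e-09). Between knockout and wild type the difference was -0.02 (95% interval -0.22 to 0.19, limma adjusted p = 0.93), which bounds it to 1.14-fold upward and to 0.858 of wild type downward. Both falls with GSH passed the test under all 20 alternatives, with log2 differences from -2.97 to -2.76 against knockout and from -2.99 to -2.72 against wild type.

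Cbs encodes cystathionine beta-synthase, the first enzyme of transsulfuration. Probe set 1423844_s_at was dim, at 263, 164 and 132 with GSH, 166, 97.1 and 108 in knockout, and 176, 105 and 102 in wild type. The groups overlapped in every comparison. GSH differed from knockout by 0.57 (95% interval -0.06 to 1.20, limma adjusted p = 0.15) and from wild type by 0.54 (0.16). Knockout differed from wild type by -0.04 (95% interval -0.67 to 0.60, limma adjusted p = 0.95). The other Cbs probe set, 1425623_a_at, fell under the signal filter and was not tested. It read 101, 54.8 and 47.8 with GSH, 16.8, 49.7 and 8.90 in knockout, and 14.3, 14.4 and 12.5 in wild type. It exceeded the control level on 2 of 3 arrays with GSH and on 0 of 6 others. The arrays with GSH and knockout overlapped, and no fold is given.

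Chac1 encodes a cytosolic enzyme that splits glutathione. It read 281, 310.3 and 366 with GSH, 929.9, 739 and 740.1 in knockout, and 1207, 1059 and 1054 in wild type. The 3 groups did not overlap and stood in that order from low to high. The fall with GSH was 2.51-fold against knockout (-1.33, SE 0.13, limma adjusted p = 9.8e-06) and 3.48-fold against wild type (-1.80, SE 0.13, limma adjusted p = 5.7e-07). Both passed under all 20 alternatives. Knockout was 1.38-fold below wild type (-0.47, SE 0.13, limma adjusted p = 0.019). This smaller fall was lost with no set term (adjusted p = 0.064), with the replicate number as a block (0.097) and in set 2 alone (0.056). It was also lost without knockout replicate 3 (0.066), knockout replicate 4 (0.098) or wild type replicate 3 (0.089). Ggt1, the enzyme that starts glutathione breakdown outside the cell, was not analysed here.

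Over the 12 tested probe sets, the median log2 difference was -0.55 in knockout against wild type, where the median of all probe sets was 0.0026. It was 0.27 with GSH against knockout (all probe sets 0.04) and -0.32 with GSH against wild type (all probe sets 0.02). The comparisons share arrays: wild type serves in both comparisons against it, and knockout in both that name it. The groups did not overlap in 8, 5 and 6 of the 12 probe sets in these comparisons, against 30.2%, 33.6% and 43.4% of all probe sets. Paired probe sets of 1 gene are not independent members. By the brighter probe set of each of 8 genes, 5 genes fell in knockout, 3 rose and 2 fell with GSH against knockout, and 4 fell with GSH against wild type. Over all probe sets 29.1%, 35.4% and 44.7% were called in these comparisons, and the last gene count lay near its share.

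The differences were also computed within each set. Slc7a11 by 1420413_at was at -2.24 in set 2 and -2.40 in set 3 between knockout and wild type, and Cth was at -2.97 and -2.61 between GSH and knockout. Chac1 was at -1.49 in set 2 and -1.02 in set 3 in that comparison. Every called member difference had the same direction in both sets. Set 3 holds 1 array a group and gives no test.

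**Figure D3:**
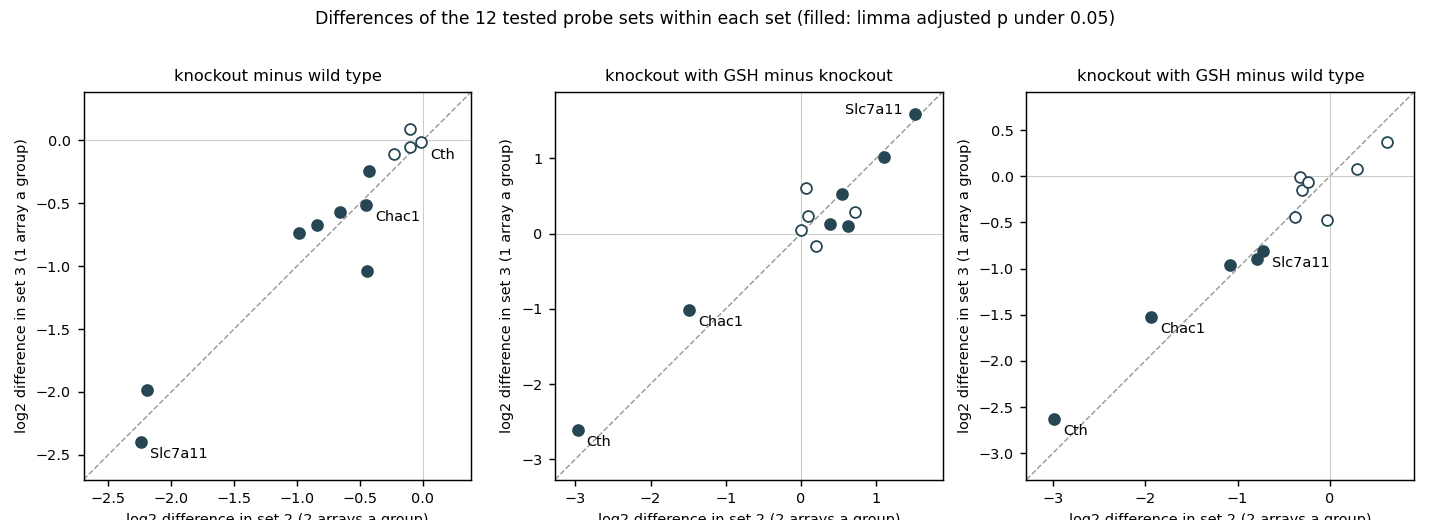
Log2 difference in set 2 (horizontal, 2 arrays a group) against set 3 (vertical, 1 array a group) for the 12 tested probe sets in each comparison. Filled points have a limma adjusted p under 0.05 over both sets, and the dashed line marks equal values. All filled points have the same sign on both axes.

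Markers of several cell types moved with these genes. Their counts stand against 29.1% of all probe sets called in knockout against wild type. The share was 35.4% with GSH against knockout and 44.7% with GSH against wild type. Between knockout with GSH and knockout, 8 of 8 epithelial markers rose, with a summed intensity of 69860.5 to 73209 on arrays with GSH and 14484 to 15815 on knockout arrays. In the same comparison 11 of 12 fibroblast markers fell (37431 to 41349.6 with GSH, 94273 to 122813 in knockout), and 8 of 16 macrophage markers rose and 2 fell (119879 to 138821 with GSH, 93093 to 113708 in knockout). Type II cell markers rose in 5 of 8 tested, and 11 with a probe set summed to 9583 to 10871 with GSH and 5699 to 6464 in knockout. Cd74 had the largest difference of them (1.89), at 2857 ± 64.0 with GSH and 769 ± 26.2 in knockout, and so weighs most in that sum. Between knockout and wild type 8 of 8 epithelial markers fell (49198 to 51389 in wild type), while 13 of 16 macrophage markers rose and 2 fell (60148 to 63307 in wild type), and 9 of 12 fibroblast markers rose and 1 fell (74304 to 79921 in wild type). Against wild type, cells with GSH had 8 of 8 epithelial, 15 of 16 macrophage and 4 of 8 type II cell markers higher. In that comparison 11 of 12 fibroblast markers were lower, and the type II cell count lay near the share of all probe sets called. The part of these markers in the member genes' values was not tested. In cultures of mixed cells, fewer cells of a type and less RNA per cell cannot be told apart.

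Endothelial markers had 1 higher and 1 lower of 6 tested with GSH against knockout, 0 higher and 2 lower in knockout against wild type, and 0 higher and 6 lower with GSH against wild type. Summed over 8 markers they gave 2169 to 2524 with GSH, 2063 to 2229 in knockout and 3379.7 to 3420.3 in wild type. The endothelial counts with GSH against knockout and in knockout against wild type lay near the shares of all probe sets called. Type I cell markers had 3 higher and 0 lower of 7 tested with GSH against knockout, 0 higher and 5 lower in knockout against wild type, and 1 higher and 3 lower with GSH against wild type. Of 2 tested club and ciliated cell markers 2 rose with GSH against knockout, and 1 fell in knockout and 1 with GSH, each against wild type. The 1 lymphocyte or erythroid marker tested did not pass in any of the 3 comparisons, and Cd3e and Nkg7, which mark T and killer lymphocytes, lay at or below the control level on all wild-type arrays.

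Counts of called genes in the lists below stand against 29.1% of all probe sets called in knockout against wild type, 35.4% with GSH against knockout and 44.7% with GSH against wild type.

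Genes of the wider ATF4 response were compared, since Slc7a11, Chac1 and Cth are known targets of this factor. In cells with GSH against knockout 10 of 16 fell and 1 rose, with a median of -0.65. Atf4 itself read 3475 ± 208 with GSH and 5269 ± 489 in knockout (-0.60, limma adjusted p = 1e-04). The lipoprotein receptor gene Vldlr fell most by p, to 219 ± 25.2 with GSH against 1109.97 ± 121 in knockout (-2.34). Asns, asparagine synthetase, read 1978 ± 194 with GSH and 4515 ± 245 in knockout (-1.19), and Atf3, a stress-induced factor, went the other way at 1614 ± 119.9 with GSH and 1119 ± 92.3 in knockout (0.53, limma adjusted p = 0.00019). Slc7a11 rose in this comparison, unlike these 10 genes, and Chac1 and Cth fell.

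Between knockout and wild type 4 ATF4 response genes fell and 2 rose of 16, with a median of -0.08, where 29.1% of all probe sets were called. That count of 6 was 3 with no set term. Psph and Psat1, enzymes of serine synthesis, fell (-0.83 and -0.43), and Atf3 and Vldlr rose (0.79 and 0.48). Atf4 differed by -0.01 (limma adjusted p = 0.95). With GSH against wild type 11 fell and 2 rose, with a median of -0.80. Psat1 and Asns fell (-2.0 and -1.36), and Atf3 and Cebpb, a leucine zipper factor, rose (1.31 and 0.31). An amino acid response element core was found in promoters of 5 of the 16 genes and of 2 of 7 member genes. It occurred in 3.97% of all promoter windows. The antioxidant response element core was found in 6 of the same 16 genes and 2 of the 7, against 12.4% of all windows. Of 16 Nrf2 response genes with a promoter window, 8 held the antioxidant core and 0 the amino acid core. A gene was counted when any of its windows held the core, whereas the background is a share of windows. The members had 10 windows, the ATF4 response genes 19 and the Nrf2 response genes 23, so counts and shares are not like for like.

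Of 14 tested genes of the Nrf2 response outside glutathione synthesis, 10 fell and 3 rose in knockout against wild type, with a median of -0.48. Srxn1, which repairs peroxiredoxins, read 856 ± 111 in knockout and 3344 ± 392 in wild type (-1.97), and the glutathione transferase gene Gstm1 read 754 ± 20.3 in knockout and 2077 ± 192 in wild type (-1.46). Gsr, glutathione reductase, and the aldo-keto reductase gene Akr1b8 rose (1.23 and 0.41). Against knockout, cells with GSH had 6 higher and 3 lower, with a median of 0.23. Hmox1, the heme-degrading oxygenase, and Gsr rose (0.81 and 0.61), Akr1b8 and the epoxide hydrolase gene Ephx1 fell (-0.74 and -0.78), and Srxn1 read 859.7 ± 48.4 with GSH and 856 ± 111 in knockout (0.01, limma adjusted p = 0.95). With GSH against wild type 8 fell and 3 rose, with a median of -0.34. Srxn1 and Ephx1 were among those that fell (-1.95 and -1.15), and Gsr and the ferritin gene Fth1 among those that rose (1.84 and 0.45).

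**Figure D4:**
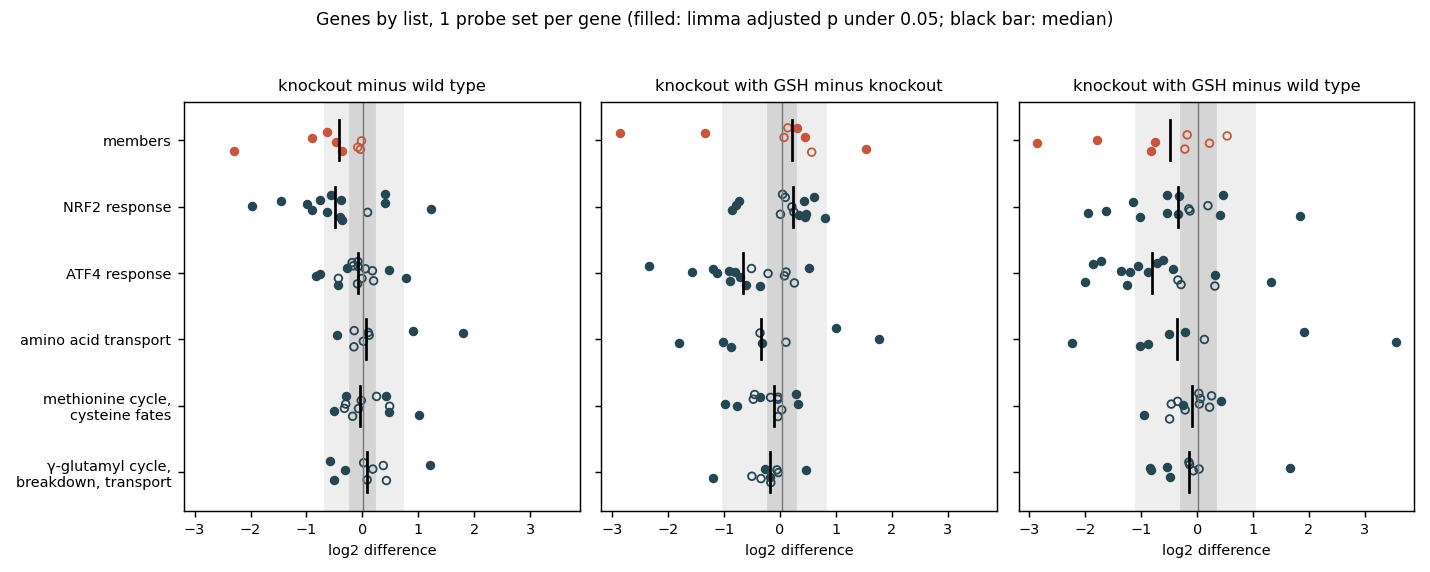
Log2 differences (horizontal axis) of the members and of 5 lists of related genes, 1 probe set per gene, in each comparison. Filled points have a limma adjusted p under 0.05, black bars are list medians, and grey bands hold the middle 50% and 90% of all 22519 probe sets. The ATF4 response median is -0.65 with GSH against knockout and -0.08 in knockout against wild type.

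Other transporters of amino acids used for glutathione changed in both directions. Of 8 tested, 2 rose and 4 fell with GSH against knockout. Slc7a5, a large neutral amino acid carrier that also pairs with Slc3a2, read 518 ± 105 with GSH and 1786 ± 167 in knockout (-1.80, limma adjusted p = 3.8e-07). Slc6a9, a glycine transporter, read 586 ± 61.9 with GSH and 1175 ± 85.1 in knockout (-1.01), while Slc7a8, a further partner of Slc3a2, read 1394 ± 126 with GSH and 696 ± 86.0 in knockout (1.01). The glutamate transporter gene Slc1a2 read 844 ± 46.6 with GSH, 249 ± 33.2 in knockout and 79.7 ± 39.9 in wild type, where 2 of 3 arrays lay above the control level. It rose with GSH against knockout (1.77) and in knockout against wild type (1.79). Between knockout and wild type 2 rose (Slc1a2 and Slc7a8, the second by 0.90) and 1 fell, Slc7a5 at -0.45. Against wild type, cells with GSH had 2 higher (Slc7a8 at 1.91 and Slc1a2 at 3.56) and 5 lower, with Slc7a5 at -2.25 and Slc6a9 at -0.89.

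Genes of the methionine cycle and of the fates of cysteine had 3 higher and 2 lower of 12 tested in knockout against wild type, where 29.1% of all probe sets were called. That count of 5 was 2 with no set term. Sqor and Ethe1, enzymes of sulfide oxidation, rose (0.47 and 0.42), and Got1 and Mat2b fell (-0.50 and -0.30). With GSH against knockout 2 rose and 3 fell, where 35.4% of all probe sets were called. Ahcy, which makes the homocysteine that enters transsulfuration, read 2799 ± 322 with GSH and 4773 ± 432 in knockout (-0.77, limma adjusted p = 8.9e-06). Ethe1 also fell (-0.36), and Got1 and Mtrr rose (0.29 and 0.33). The count of 5 with GSH against knockout was 2 with no set term, 3 with the replicate number as a block, 3 with no signal filter, over the 6 arrays compared alone or in set 2 alone, 1 without GSH replicate 3, 3 without GSH replicate 4 or knockout replicate 2, and 2 without knockout replicate 4. With GSH against wild type 1 rose, Sqor at 0.43, and 3 fell, among them Ahcy at -0.95 and Mat2b at -0.26, a count of 4 that became 7 without knockout replicate 3 and 2 with no set term, where 44.7% of all probe sets were called.

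Genes that handle glutathione after its synthesis had 1 higher and 3 lower of 9 tested both in knockout against wild type and with GSH against knockout, where 29.1% and 35.4% of all probe sets were called. Anpep, an aminopeptidase that splits the cysteinyl-glycine left by glutathione breakdown, rose in both (1.20 and 0.46). Ggct, which acts on the gamma-glutamyl products, read 461 ± 69.7 in knockout and 655 ± 88.5 in wild type (-0.51, limma adjusted p = 0.0018), and the exporter gene Abcc1 fell too (-0.59). With GSH against knockout Abcc1 and the dipeptidase gene Dpep1 fell (-0.26 and -1.20), and Ggct differed by -0.02 (limma adjusted p = 0.87). The count of 4 with GSH against knockout was 1 with no set term, 2 with the replicate number as a block, with no intensity trend or in set 2 alone, 1 without GSH replicate 4, and 2 without GSH replicate 3 or knockout replicate 2, 3 or 4. With GSH against wild type Anpep rose (1.67) and 4 fell, among them Abcc1 (-0.84) and Lap3 (-0.48). Chac2, the close relative of Chac1, read 311 ± 42.1 with GSH, 390.5 ± 22.3 in knockout and 347 ± 61.5 in wild type. It passed in none of the 3 comparisons (limma adjusted p = 0.10 with GSH against knockout).

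The 5 genes whose profile over the 9 arrays lay closest to that of Slc7a11 (1420413_at) were Tgfb2, Efhd1, Hamp, Gpx2 and Col4a3, out of 20087 candidate probe sets. Likeness was the root mean square difference between log2 profiles, each centred on its own mean. It was 0.15 for Tgfb2, a transforming growth factor, 0.21 for Efhd1, a calcium-binding protein of mitochondria, and 0.22 for Hamp, the iron hormone hepcidin. It was 0.24 for Gpx2, an epithelial glutathione peroxidase, and 0.25 for Col4a3, a basement membrane collagen chain, while the second Slc7a11 probe set lay at 0.23. Tgfb2 averaged 483 ± 30.9 with GSH, 142 ± 23.5 in knockout and 799.97 ± 54.0 in wild type. Gpx2 averaged 236 ± 36.3 with GSH, 88.2 ± 16.96 in knockout and 317 ± 36.2 in wild type. All 5 were chosen for this pattern, so no test is given.

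**Figure D5:**
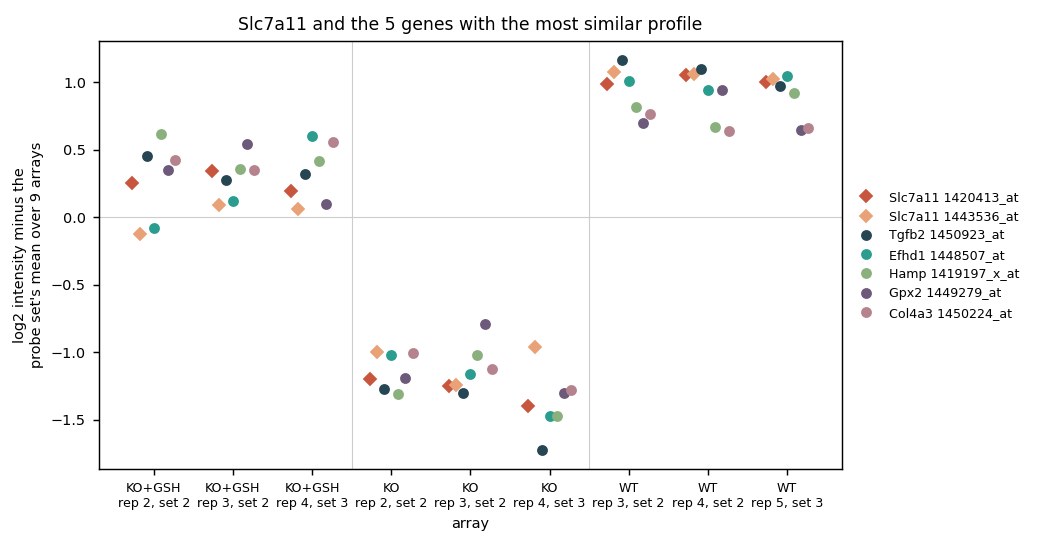
Log2 intensity minus the probe set's mean (vertical axis) on each of the 9 arrays (horizontal axis) for the 2 Slc7a11 probe sets (diamonds) and the 5 genes with the most similar profile (circles). All 7 probe sets are lowest on the knockout arrays and highest on the wild-type arrays.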

How the data were processed

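Gene expression was measured on 9 arrays, 3 a group. The intensity values of each probe set are those the authors deposited, on a linear scale. Labelled RNA was hybridised to an Affymetrix mouse array, per the labels. Every array had a 2% trimmed mean of 500, and no source used here names the summary software. The 64 control probe sets were left out. The 2 values at 0 were set to 0.1 before log2, with no further normalisation. Probe sets below the median mean log2 intensity were left out, which kept 22519 of 45037.

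One model in limma 3.58.1 (R 4.3.3) took the log2 values of the 3 groups together, with group and set as terms and a trend on intensity. It had 5 residual and 6.08 prior degrees of freedom. P-values were adjusted by the Benjamini-Hochberg method over all tested probe sets. The fit was also run on simulated data with independent noise and no set effect. Such data lack the correlation among arrays of the same set, so that run does not cover it. The control level is the 95th percentile, per array, of 27 control probe sets. Where all arrays of a group lay at or below it, no fold is given. In GEO's platform annotation, the source of gene symbols, 34945 probe sets had 1 symbol, 932 several and 9160 none. Of those with 1 symbol, 34741 matched a RefSeq gene identifier, and 0 symbols differed. The brightest probe set stood for a gene in the lists. The members and lists were chosen with earlier results of these data known.

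Named genes were all member probe sets, up to 2 called genes a direction with the smallest p for each list and comparison, Chac2, Ggct and Atf4, and the 5 genes most like Slc7a11. Mat2a, also named by that rule, had no probe set with a single symbol. Nfe2l2, the sex-linked genes and the cell type markers were given as checks. Replicate numbers 2, 3 and 4 are shared by both knockout groups in the labels. The deviations of same-numbered arrays from their group means correlated at 0.32, 0.29 and 0.67, which meets the limit set for pairing (above 0.1 for each), while crossed pairs within set 2 correlated at 0.24 and 0.39. The reported values come from the fit without this block, and the blocked value stands beside a member result whose call it changes. Replicate 4 of wild type lies in the other set and correlated at -0.49 with knockout replicate 4, so wild type shares no pairing with it. Alternatives changed the set term, normalisation, filter, floor, pseudocount, trend and arrays used.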

Additional observations from a re-analysis of the deposited data

How the results depend on the processing

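With GSH against knockout, both Slc7a11 probe sets, Cth, Chac1 and Gclc 1455959_s_at kept their calls under every alternative in which they were tested. The highest limma adjusted p of Gclc 1455959_s_at there was 0.049, with no set term. Both Slc7a11 probe sets and Gclc 1455959_s_at likewise kept their calls in knockout against wild type. So did both Slc7a11 probe sets, Cth, Chac1 and Gclm 1418627_at with GSH against wild type. The member count in knockout against wild type, 8, was 3 with no set term, 4 with the replicate block in place of the set, 5 with the filter at the 70th percentile, 4 by the rule of the series design text (without its last criterion) and 5 with the brightest probe set per gene. Leaving out 1 array gave 5 to 8, the lowest without wild type replicate 3. With GSH against knockout the count of 7 was 4 by the design text's rule and 5 to 7 without 1 array, and with GSH against wild type the count of 5 was 5 to 6 without 1 array. The replicate block gave 5 in both of these. In comparisons with wild type the block joins arrays of different sets and has no set term, so its counts there do not test pairing. In the gene lists, the block moved the counts in knockout against wild type to 3 of the ATF4 response (6 without it), 8 of the Nrf2 response (13), 2 of the methionine cycle (5) and 2 of glutathione handling (4), and with GSH against wild type to 2 of the methionine cycle (4) and 3 of glutathione handling (5).

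Over all probe sets, calls in knockout against wild type fell to 2774 with no set term, 3253 with the replicate block and 2429 by the design text's rule, against 6560. With GSH against knockout they were 4574 with no set term and 3539 by that rule, against 7964, and with GSH against wild type 6181, 6586 with the replicate block and 4696, against 10074.

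Differences near 0 changed sign. The replicate block gave 0.052 for Gss 1441931_x_at and 0.13 for Cth in knockout against wild type, and 0.064 for Gss 1441931_x_at with GSH against wild type. In both comparisons that block joins arrays of different sets without a set term. Quantile normalisation gave 0.0039 for Cth in knockout against wild type, and set 2 alone -0.0057 for Gss 1441931_x_at with GSH against knockout. Without 1 array, knockout minus wild type ran from -0.13 to 0.0020 for Slc3a2, from -0.24 to 0.21 for Cbs 1423844_s_at and from -0.075 to 0.044 for Cth. GSH minus knockout ran from -0.21 to 0.29 for Gclm 1418627_at and from -0.057 to 0.11 for Gss 1441931_x_at. None of these passed the test. The cause of these shifts was not tested. Signals near the control level, such as Cbs, limit what could be measured.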
